A study of Arabidopsis thaliana with 4 samples.

Results

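Catalases, ascorbate peroxidases and superoxide dismutases are the core enzymes with which plant cells remove reactive oxygen, and 10 of their genes are described here in leaves of Arabidopsis thaliana. The members were chosen by name and locus, although with earlier results of these data known: 3 catalases (CAT1, AT1G20630; CAT2, AT4G35090; CAT3, AT1G20620), 3 ascorbate peroxidases (APX1, AT1G07890; APX2, AT3G09640; and the thylakoid enzyme tAPX, AT1G77490) and 4 superoxide dismutases (FSD1, AT4G25100; CSD1, AT1G08830; CSD2, AT2G28190; MSD1, AT3G10920). All 10 were found among the 32982 genes of the count files, and 9 of them passed the filter on low counts that left 19403 genes for testing. APX2 did not pass.

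RNA sequencing compared 4 groups of leaves in a study of how mitochondrial stress in a treated leaf reaches untreated leaves of the plant, as its title puts it. Dox systemic leaves came from plants whose local leaf received Dox, and control systemic leaves from plants whose local leaf received water. The labels list no treatment of these systemic leaves themselves. Dox local leaves received Dox at 25 μm/g, a unit spelled as in the labels, and control local leaves received water. The labels do not spell Dox out and use the genotype field for the leaf position, so that no plant genotype, accession or age is known for any group. All plants grew on sucrose-supplemented agar in a long-day light cycle. Neither the hour of harvest nor the time since treatment is given in the sources used here, so a stress response cannot be placed in time and a daily rhythm cannot be told apart from a difference in harvest hour. Each group is 1 labelled sample with 3 count columns, taken here as libraries 1 to 3. Whether they stem from different plants is not stated, and a p-value here speaks only of the spread among the libraries, which may be technical.

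Superoxide dismutases turn superoxide into hydrogen peroxide and oxygen, and catalases and ascorbate peroxidases then remove the peroxide. Catalases work in peroxisomes without a reductant, whereas ascorbate peroxidases oxidise ascorbate, which other enzymes recycle with glutathione and NADPH. In leaves the peroxide comes mainly from photorespiration in peroxisomes and from electron transport in chloroplasts and mitochondria. When copper is scarce, the microRNA miR398 lowers the copper/zinc enzymes CSD1 and CSD2 and the copper chaperone CCS1, which loads copper into them, while the iron enzyme FSD1 takes their place in the chloroplast.

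The sequences through which CSD1, CSD2 and CCS1 share this regulator come first, since the levels of these genes varied together over the libraries. The mature 3p sequences of the miR398 family, from the RefSeq annotation of the TAIR10.1 assembly, are written 5′ to 3′ with the seed (bases 2 to 8) in capitals. All 3 carry the same seed, and the b and c forms are identical.
ath-miR398a-3p: uGUGUUCUcaggucaccccuu
ath-miR398b-3p: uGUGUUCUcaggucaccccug
ath-miR398c-3p: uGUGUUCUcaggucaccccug
The stretches that pair best with miR398b-3p and miR398c-3p follow, with the Watson-Crick paired bases in capitals.
CSD1 site: aAGGGGUuuCCUGAGAuCACA
CSD2 site: ugcGGGUGACCUGgGAAACA
CCS1 site: CAuuGGGaGACCUGgGAACACu
In TAIR10.1 the CSD1 site lies in the 5′ UTR and spans an intron at chr1:2827177-2827685 on the + strand. The CSD2 site lies in the coding sequence at chr2:12015572-12015591 on the + strand, and the CCS1 site in the coding sequence at chr1:4267521-4267542 on the - strand. Pairing was scored with a penalty of 1 for a mismatch, 0.5 for a G:U pair and 1 for a bulge of 1 base. The penalty was 3.5 for CSD2, 4 for CSD1 and 4.5 for CCS1. A site at least as good was found in 0.0365% of 27438 protein-coding loci for CSD2, in 0.142% for CSD1 and in 0.507% for CCS1. Among the 15 genes searched (the 10 members, FSD2, FSD3, CSD3, MSD2 and CCS1) these 3 had the lowest penalties, and the others started at 5.5, in FSD2. A match describes the letters only and is not a measured cleavage.

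Depth was even, with 18981328 to 21380652 counts and 21429 to 22325 detected genes in each library. Levels are given in CPM, read counts relative to the library size after TMM scaling in edgeR. As a check of the leaf label, 5 mesophyll genes summed to 20100 to 30850 CPM, and 9 root markers to 29.0 to 266 CPM. Of these 9, PYK10 (1.65 to 239 CPM) and SCR (15.9 to 31.8 CPM) were read in every library, CASP1, CASP2 and COBL9 stayed at or under 2.43 CPM, and IRT1, EXPA7, RHD6 and PLT1 had 0 reads. Libraries of a group could stand far apart, and the first principal component, with 36.3% of the variance, set control local library 3 (76.3) and Dox local library 1 (75.4) at one end and Dox systemic library 1 (-65.2) at the other.

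Per kilobase of exon, CAT3 was the most abundant member. Its level averaged 556 ± 207 CPM per kb over all libraries (SD, n = 12), above 99.9% of the genes tested by CPM. FSD1 followed at 211 ± 58.0, CSD1 at 172 ± 61.8, APX1 at 169 ± 62.7, CSD2 at 123 ± 67.8 and MSD1 at 116 ± 11.2 CPM per kb. Neighbours among these 5 lay within each other's spread. Below them stood tAPX at 50.7 ± 7.38, CAT2 at 38.8 ± 22.0 and CAT1 at 17.9 ± 3.62 CPM per kb, and the means of both neighbours of CAT2 lay within its wide spread, although its mean lay outside theirs. APX2, at 0.105 ± 0.167 CPM per kb, was close to unread.

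**Figure D1:**
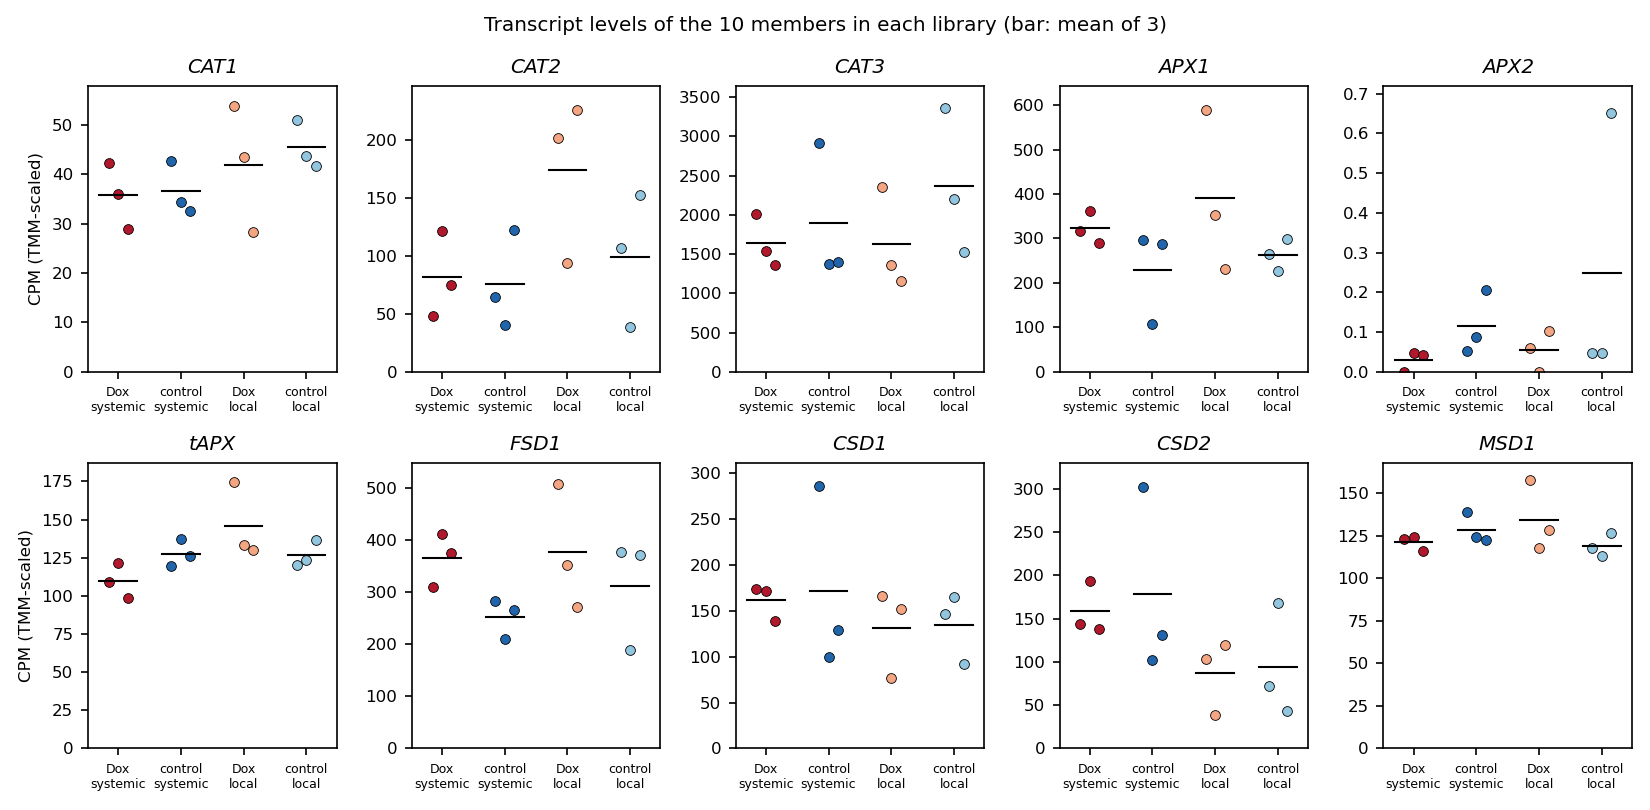
Level of each member in CPM (linear axes from 0) in the 3 libraries of Dox systemic, control systemic, Dox local and control local leaves, with the group mean as a bar. FSD1 is the member whose 3 Dox systemic libraries (311 to 412 CPM) all lie above the 3 control systemic ones (210 to 284 CPM), while the groups overlap for the others tested.

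No member passed the test in any comparison, and neither did most of the transcriptome. With edgeR's quasi-likelihood test, adjusted by the Benjamini-Hochberg method over the 19403 genes at a threshold of 0.05, 0 members and 0 genes (0%) passed for Dox over control in systemic leaves, and 0 members and 0 genes (0%) in local leaves. Unadjusted p-values under 0.05 were held by 1670 genes (8.61%) in the systemic and 915 genes (4.72%) in the local comparison, with 0 members in either. Between leaf positions, averaged over Dox and control plants, 2 genes (0.0103%) and 0 members passed, and 3765 genes (19.4%) with 1 member, CSD2, had an unadjusted p under 0.05. The test of whether the Dox difference itself differed between positions passed 0 genes (0%), with 1008 genes (5.2%) and 0 members at an unadjusted p under 0.05. DESeq2 called 134 genes (0.695%) in the systemic comparison, 14 (0.0632%) in the local one, 996 (5.04%) between positions and 1 (0.004%) for the difference of differences, and 0 members in each.

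The spread between libraries set the limit on what could be called for each member. MSD1 ranged from 113 to 158 CPM over the 12 libraries, 1.39-fold, and only 2.26% of the genes tested had a smaller standard deviation of log2 CPM. tAPX was also steady, with a 1.77-fold range from 98.4 to 175 CPM. CAT2 and CSD2 were the most variable members, with ranges of 5.78-fold (39.0 to 225 CPM) and 7.89-fold (38.3 to 302 CPM), and each varied more than 87.7% of genes. A difference of the same size is therefore far less certain for CAT2 or CSD2 than for MSD1. In whole leaves, fewer cells of a type and less RNA per cell cannot be told apart.

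**Figure D2:**
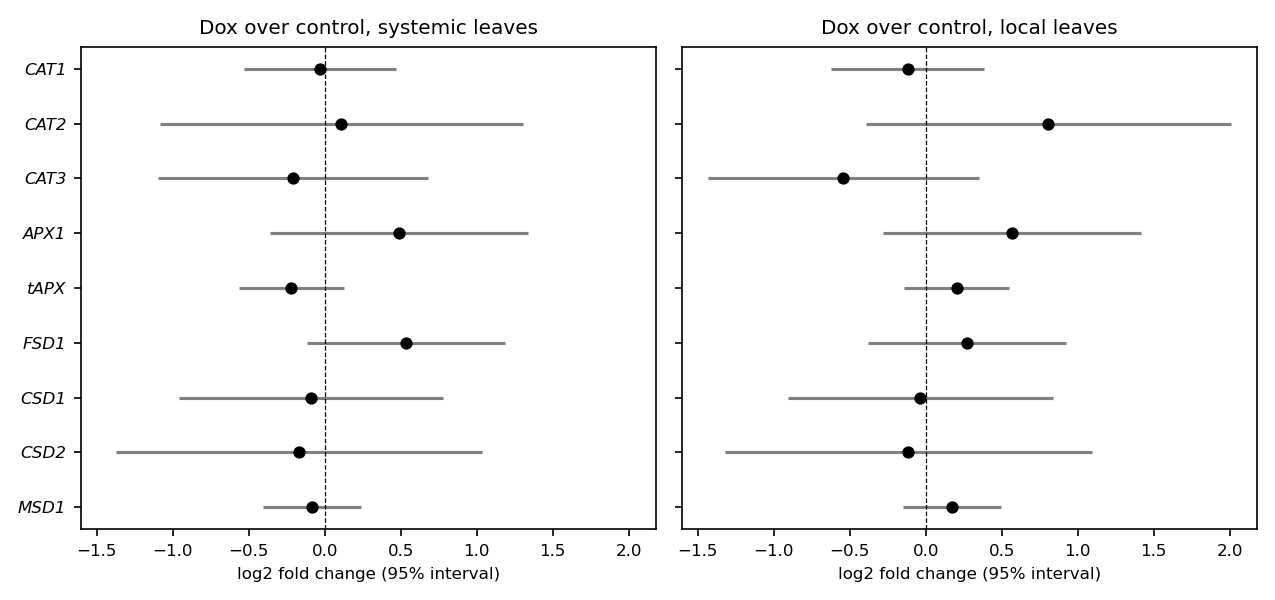
Log2 fold change of the 9 tested members for Dox over control in systemic leaves (left) and in local leaves (right), with the 95% interval from the edgeR fit as a line. Each of the 18 intervals spans 0, and those of CAT2 and CSD2 are several times wider than those of MSD1 and tAPX.

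The catalases are led by CAT3, a peroxisomal enzyme whose transcript in Arabidopsis is known to peak toward evening. CAT3 stood at 2013, 1546 and 1366 CPM in Dox systemic leaves, against 2914, 1378 and 1398 CPM in control systemic leaves. In Dox local leaves it stood at 2358, 1356 and 1156 CPM, against 3360, 2209 and 1522 CPM in control local leaves. The highest library of every group was number 1, and Dox and control overlapped at both positions. On the log2 scale CAT3 differed by -0.21 (SE 0.41, 95% interval -1.10 to 0.68, adjusted p = 0.920 by edgeR) in systemic leaves and -0.54 (SE 0.41, 95% interval -1.43 to 0.35, adjusted p = 0.902) in local leaves. Control systemic library 1 decides the sign of the systemic value, which was 0.25 without it.

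CAT2, the main catalase of photorespiring leaf cells, was the member with the largest value in local leaves. It had 201, 93.7 and 225 CPM in Dox local leaves, against 107, 39.0 and 152 CPM in control local leaves. In Dox systemic leaves it had 48.2, 122 and 74.6 CPM, against 64.3, 40.6 and 122 CPM in control systemic leaves. Library 2 was the lowest of both local groups, and each pair of groups overlapped. The local difference was 1.75-fold (log2 0.81, SE 0.55, 95% interval -0.40 to 2.01), with an adjusted p of 0.902 by edgeR. It ranged from 0.42 without control local library 2 to 1.25 without control local library 3. The systemic difference was 0.11 on the log2 scale (SE 0.55) and turned to -0.30 without Dox systemic library 2. Between positions CAT2 was 0.60-fold in systemic relative to local leaves (log2 -0.74, SE 0.39, 95% interval -1.59 to 0.11, adjusted p = 0.307).

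CAT1, a catalase best known from seeds and from abscisic acid responses, stayed low. Its level was 42.4, 36.0 and 29.0 CPM in Dox systemic leaves, against 42.8, 34.4 and 32.5 CPM in control systemic leaves. Its local level was 53.9, 43.5 and 28.3 CPM in Dox leaves, against 51.0, 43.7 and 41.8 CPM in control leaves. The groups overlapped, and the log2 fold change was -0.03 (SE 0.23) in systemic and -0.12 (SE 0.23) in local leaves. As with CAT3, library 1 was the highest of all 4 groups. CAT1 and CAT3 are neighbours in the genome, with CAT3 upstream on the same strand, and their log2 CPM had r = 0.78 (Spearman's rho 0.74) over the 12 libraries. The value was 0.81 within groups and 0.72 without the 2 libraries farthest from the median of CAT1. By r over the 12 libraries, CAT3 was only the 170th nearest to CAT1 of all the genes tested, and CAT1 the 96th nearest to CAT3. A part of genome position in this r was not tested. CAT1 and CAT2 had r = -0.04, and CAT2 and CAT3 had r = -0.20.

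As a share of the catalase signal per kilobase, CAT3 held 78.4% to 95.3%, with a median of 89.7% over the 12 libraries. CAT2 held 2.05% to 18.7% and CAT1 2.13% to 4.31%. The lowest CAT3 share and the highest CAT2 share were in Dox local library 3. The CAT2 share averaged 11.8% ± 6.05 in Dox local leaves, against 5.41% ± 4.50 in control local leaves (SD, n = 3 each). It averaged 5.78% ± 2.88 in Dox systemic leaves and 5.09% ± 3.70 in control systemic leaves, so that these differences lay within the spread.

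**Figure D3:**
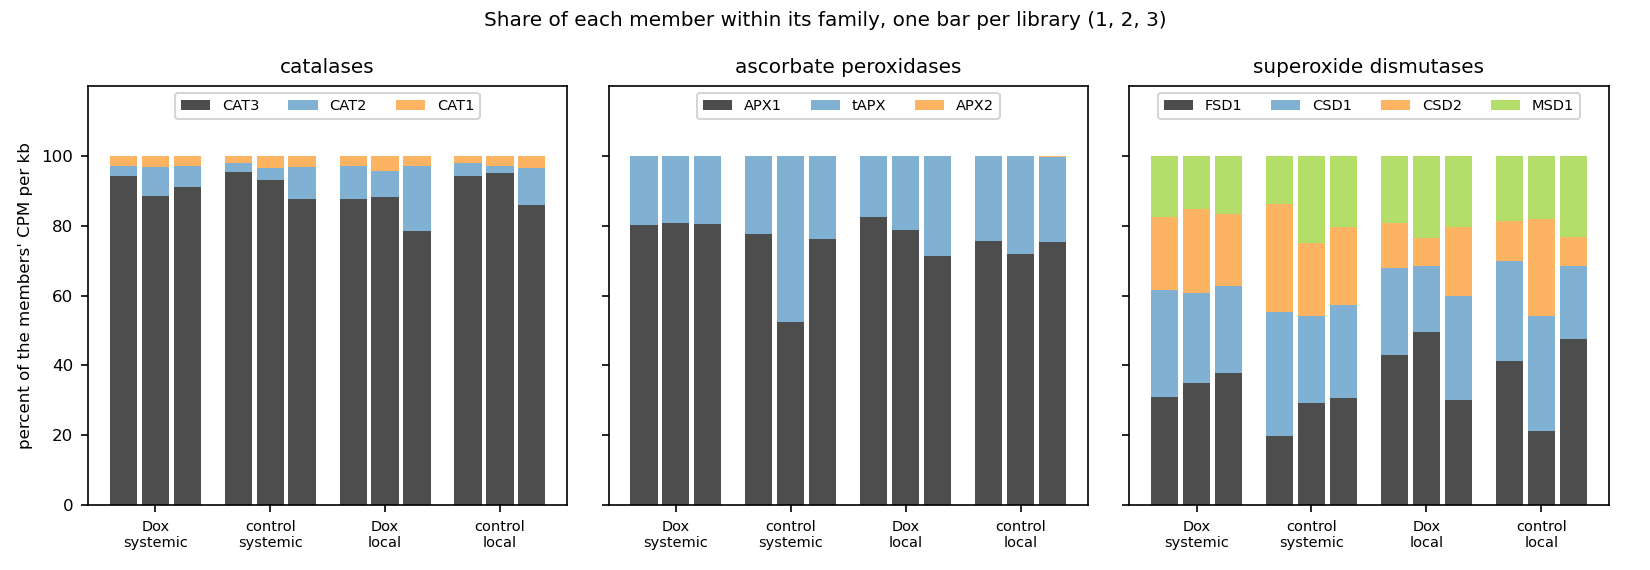
Share of each member in the summed CPM per kb of its family (vertical axis, percent), 1 stacked bar per library, for the catalases, the ascorbate peroxidases and the superoxide dismutases. CAT3 holds at least 78.4% of the catalase signal in each library, and APX1 holds 52.4% to 82.6% of the signal of the 3 ascorbate peroxidases.

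Clock genes were read beside CAT3 and CAT2, whose transcripts are known to cycle in opposite phase. The evening clock gene TOC1 was at 148 to 342 CPM in all libraries, while the morning genes CCA1 and LHY were at 0.207 to 2.70 and 0 to 1.76 CPM. TOC1 stood at 153, 153 and 148 CPM in Dox systemic leaves, against 192, 188 and 272 CPM in control systemic leaves, which did not overlap. Its local levels did overlap, at 302, 159 and 325 CPM in Dox leaves, against 234, 202 and 342 CPM in control leaves. Of 8 clock genes tested, Dox systemic libraries lay wholly above the control ones for 1 and wholly below for 4, beside 7.96% and 8.41% of all genes. In systemic leaves 2 of the 8 had a positive and 6 a negative log2 fold change, and 0 passed. The largest was LHY at 2.54 (SE 0.82), which stayed under 2 CPM, and among genes at 10 CPM or more the largest were PRR7 at -2.32 (SE 0.64) and GI at -1.74 (SE 0.87). In local leaves 4 were positive and 4 negative, with LHY at 1.23 (SE 0.81), GI at -1.18 (SE 0.84) and PRR5 at -1.11 (SE 0.59), and 0 passed. The part of clock phase in the catalase values was not tested. The 250 bases before the CAT3 start in TAIR10.1 (chr1:7142722-7142971, + strand) hold 1 evening element, AAAATATCT, shown in capitals because CAT3 is the only member with it.
CAT3 promoter: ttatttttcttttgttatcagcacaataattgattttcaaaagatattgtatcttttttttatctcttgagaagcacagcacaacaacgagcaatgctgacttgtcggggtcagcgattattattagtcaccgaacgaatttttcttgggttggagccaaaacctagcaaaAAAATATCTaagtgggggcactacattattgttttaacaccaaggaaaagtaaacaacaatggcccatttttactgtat
Searched on both strands, this motif occurs in 2.36% of 27443 such promoters.

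Among the ascorbate peroxidases, APX1 encodes the main cytosolic enzyme. Its level was 316, 362 and 290 CPM in Dox systemic leaves, against 296, 108 and 287 CPM in control systemic leaves. In Dox local leaves it was 588, 353 and 231 CPM, against 266, 226 and 299 CPM in control local leaves. One library sets each difference: control systemic library 2 is far below the rest and Dox local library 1 far above, and the groups otherwise overlap. The log2 fold change was 0.49 (SE 0.39, 95% interval -0.36 to 1.34, adjusted p = 0.754 by edgeR) in systemic leaves and 0.57 (SE 0.39, 95% interval -0.28 to 1.42, adjusted p = 0.902) in local leaves. It was 0.15 in systemic leaves without control systemic library 2 and 0.15 in local leaves without Dox local library 1.

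APX2, a cytosolic enzyme known to be induced by heat and excess light through heat shock factors, was nearly silent. Dox systemic libraries held 0, 1 and 1 reads and control systemic libraries 1, 2 and 4. Dox local libraries held 1, 0 and 2 reads and control local libraries 1, 1 and 11. With 2 reads against 7, the systemic ratio of Dox over control was 0.262 (95% exact interval 0.0266 to 1.38, counting error only), and with 3 against 13 the local ratio was 0.248 (0.0453 to 0.903). The local ratio rests on the 11 reads of control local library 3. Depth therefore limits any statement on APX2 to its near absence.

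The heat shock factor HSFA2, known in Arabidopsis to activate APX2, was not even across these libraries. It reached 116 CPM in Dox local library 1, where APX1 had its highest level (588 CPM) and APX2 had 1 read. Elsewhere HSFA2 was at 1.25 and 0.865 CPM in Dox local libraries 2 and 3 and at 3.26 CPM in control local library 3, where APX2 had 11 reads. Of 12 heat shock factors and targets tested, 7 had a positive log2 fold change in local leaves (HSFA2 5.11, SE 1.79; MBF1C 3.42, SE 1.12) and 1 in systemic leaves, where HSP70 (-1.52, SE 1.10) and HSFB1 (-0.48, SE 0.68) were the largest among genes at 10 CPM or more. None of the 12 passed, and their part in the APX1 values was not tested. APX1 and APX2 are the only members with a heat shock element, GAANNTTC, in the 250 bases before their start, and the element is in capitals below.
APX1 promoter: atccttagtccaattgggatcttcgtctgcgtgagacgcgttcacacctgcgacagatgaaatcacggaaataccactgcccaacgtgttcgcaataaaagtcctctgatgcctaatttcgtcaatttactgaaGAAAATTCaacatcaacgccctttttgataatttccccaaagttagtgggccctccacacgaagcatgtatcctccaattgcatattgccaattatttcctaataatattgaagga
APX2 promoter: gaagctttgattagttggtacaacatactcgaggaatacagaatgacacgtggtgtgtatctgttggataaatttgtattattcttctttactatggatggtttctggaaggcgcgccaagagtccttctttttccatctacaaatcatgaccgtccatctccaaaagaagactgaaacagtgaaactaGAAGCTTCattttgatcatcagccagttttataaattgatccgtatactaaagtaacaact
These are chr1:2437031-2437280 and chr3:2955906-2956155 of TAIR10.1, both on the + strand. The element reads the same on both strands and occurs in 9.55% of 27443 promoters, so 2 of 10 members is a description of these letters. The APX2 window also holds the copper response core GTAC, found in 5 members and 34.3% of promoters, and the G-box CACGTG, found in 1 member and 6.49% of promoters, neither overlapping the heat shock element.

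tAPX, which removes peroxide at the thylakoid membrane of the chloroplast, was among the steadiest members. It stood at 109, 122 and 98.4 CPM in Dox systemic leaves, against 120, 137 and 126 CPM in control systemic leaves. Dox local leaves had 175, 133 and 130 CPM of it, against 120, 124 and 137 CPM in control local leaves. The systemic groups overlap by the Dox library at 122 CPM and the control library at 120 CPM. For tAPX the log2 fold change was -0.22 (SE 0.16, 95% interval -0.57 to 0.13, adjusted p = 0.726 by edgeR) in systemic and 0.20 (SE 0.16, 95% interval -0.15 to 0.55, adjusted p = 0.902) in local leaves. The difference between these differences was -0.42 (SE 0.22, 95% interval -0.91 to 0.07, adjusted p = 0.832), the member's largest value relative to its error in the 4 comparisons. It depends on the scaling, since with total counts alone the tAPX log2 fold change was -0.11 in systemic and 0.053 in local leaves. Within the signal per kilobase of the 3 ascorbate peroxidases, tAPX held 19.5% ± 0.223 in Dox systemic leaves and 31.2% ± 14.2 in control systemic leaves, and 22.4% ± 5.68 in Dox local leaves and 25.6% ± 2.05 in control local leaves (SD, n = 3 each). The control systemic mean is set by library 2, where APX1 was lowest and tAPX held 47.6%.

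The stromal enzyme sAPX, a close relative of tAPX that is also sent to mitochondria, had the largest value of the family in systemic leaves, although it did not pass the test. It had 54.1, 43.5 and 44.3 CPM in Dox systemic leaves, against 37.9, 14.5 and 23.5 CPM in control systemic leaves, and did not overlap. Locally, sAPX had 19.2, 24.4 and 16.4 CPM in Dox leaves, against 31.7, 26.3 and 14.1 CPM in control leaves. Its log2 fold change was 0.90 (SE 0.35, adjusted p = 0.533 by edgeR) in systemic and -0.27 (SE 0.35, adjusted p = 0.915) in local leaves. Among the 5 other ascorbate peroxidases tested, 2 were positive and 3 negative in systemic leaves (median -0.19). APX4, a thylakoid lumen protein, was at -0.57 (SE 0.19, adjusted p = 0.487 by edgeR). Of these 5, Dox systemic libraries lay wholly above the control ones for 1, sAPX, and wholly below for 2. Such non-overlap held for 7.96% of all genes with Dox higher and 8.41% with Dox lower. In local leaves 4 were positive and 1 negative (median 0.11), with APX6 at 0.25 (SE 0.18), and 0 passed at either position.

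FSD1, the iron superoxide dismutase of chloroplast and cytosol, was the 1 member whose Dox and control systemic libraries did not overlap, although it did not pass the test. It had 311, 412 and 377 CPM in Dox systemic leaves, against 284, 210 and 266 CPM in control systemic leaves. Local libraries had 508, 353 and 271 CPM with Dox, against 378, 190 and 372 CPM in control leaves. Each Dox systemic library lay above each control systemic library, the gap being between 311 and 284 CPM, while the local groups overlapped. The systemic difference was 1.45-fold (log2 0.53, SE 0.30, 95% interval -0.12 to 1.19, unadjusted p = 0.0993, adjusted p = 0.642 by edgeR). It kept its sign without any 1 library, at 0.41 to 0.64. In local leaves the log2 fold change was 0.27 (SE 0.30, adjusted p = 0.905) and -0.0050 without Dox local library 1. Non-overlap with Dox higher was found for 7.96% of genes in the systemic comparison, where it held for 1 of 9 members, and for 4.14% in the local one, where it held for 0. Non-overlap with Dox lower was found for 8.41% of genes in systemic leaves and 3.4% in local leaves, and for 0 members. Between positions, 0 members were wholly higher in systemic libraries (0.917% of genes) and 0 wholly lower (0.309%). A count of 1 in 9 is near that background.

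The copper/zinc enzymes CSD1 in the cytosol and CSD2 in the chloroplast varied together across libraries. CSD2 had 144, 194 and 138 CPM in Dox systemic leaves, against 302, 102 and 132 CPM in control systemic leaves. In Dox local leaves it had 104, 38.3 and 120 CPM, against 72.1, 168 and 43.4 CPM in control local leaves. Dox and control overlapped at both positions, and control systemic library 1 held the maximum. The log2 fold change was -0.17 (SE 0.55, 95% interval -1.38 to 1.04, adjusted p = 0.957 by edgeR) in systemic and -0.11 (SE 0.55, 95% interval -1.32 to 1.09, adjusted p = 0.979) in local leaves. Without control systemic library 1 the systemic value was 0.45, and without control local library 2 the local value was 0.60.

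CSD1 had 174, 171 and 139 CPM in Dox systemic leaves, against 287, 99.7 and 130 CPM in control systemic leaves. Dox local libraries were at 166, 76.3 and 152 CPM, against 147, 165 and 92.6 CPM in control local leaves. Its highest library, control systemic 1, and its lowest, Dox local 2, are those of CSD2. Its log2 fold changes were -0.09 (SE 0.40, 95% interval -0.96 to 0.78) in systemic and -0.04 (SE 0.40, 95% interval -0.91 to 0.83) in local leaves. Without control systemic library 1 the systemic value was 0.50.

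CCS1, the copper chaperone with the third of the miR398 sites shown above, followed the same libraries. It had 107, 121 and 98.7 CPM in Dox systemic leaves, against 142, 73.9 and 73.6 CPM in control systemic leaves. The CCS1 level was 57.5, 38.7 and 65.7 CPM in Dox local leaves, against 65.6, 91.0 and 39.6 CPM in control local leaves. Over the 12 libraries, log2 CPM of CSD2 and CCS1 had r = 0.95 (Spearman's rho 0.92), of CSD1 and CSD2 r = 0.88 (rho 0.81), and of CSD1 and CCS1 r = 0.82 (rho 0.71). Of all the genes tested, CCS1 was the nearest to CSD2, and CSD2 was the 4th nearest to CSD1. Within groups the 3 values were 0.96, 0.91 and 0.91. They were 0.87, 0.70 and 0.62 without the 2 libraries farthest from the median of the first gene of each pair. The points share library preparation, depth and harvest, and these are 3 of 45 pairs of genes examined, whose r ran from -0.56 to 0.95. FSD1 had r = -0.28 with CSD2 and -0.02 with CSD1.

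**Figure D4:**
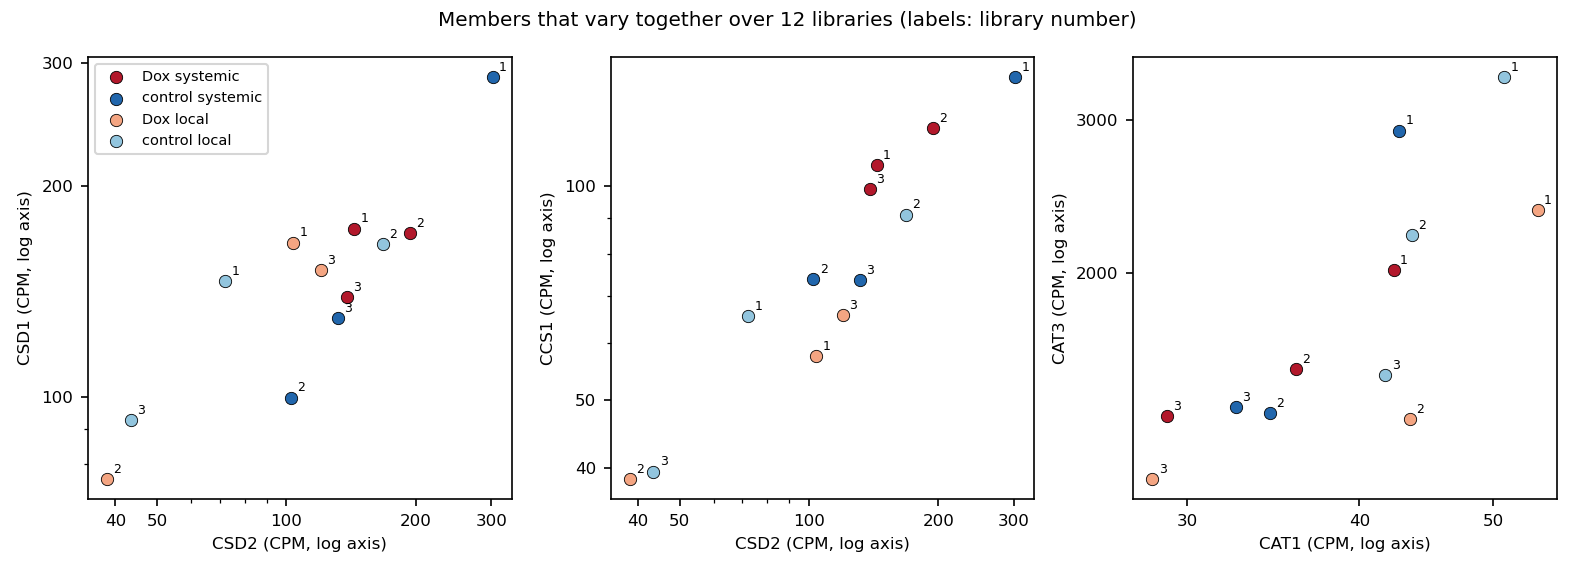
Levels of CSD1 and of CCS1 against CSD2, and of CAT3 against CAT1, in CPM on log axes, 1 point per library coloured by group and labelled with its library number. CSD2 spans 38.3 to 302 CPM, with Dox local library 2 and control local library 3 at the low end and control systemic library 1 at the top for CSD1, CSD2 and CCS1.

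Systemic over local, the copper/zinc pair held the largest positive values of the members. CSD2 was 1.85-fold (log2 0.89, SE 0.39, 95% interval 0.03 to 1.75) in systemic relative to local leaves, with an unadjusted p of 0.0438 and an adjusted p of 0.245 by edgeR. CSD1 was 1.25-fold (log2 0.32, SE 0.28, adjusted p = 0.535), and CCS1 had a log2 value of 0.79 (SE 0.24, adjusted p = 0.155). CSD2 averaged 159 ± 30.6 CPM in Dox systemic and 179 ± 108 CPM in control systemic leaves, and 87.4 ± 43.3 CPM in Dox local and 94.5 ± 65.3 CPM in control local leaves (SD, n = 3 each). The positions overlapped, at 102 to 302 CPM in systemic and 38.3 to 168 CPM in local libraries. The other 7 members tested had negative values, from -0.74 for CAT2 to -0.02 for MSD1, and the median over the 9 was -0.17, beside 0.02 over all genes.

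The regulator and the copper supply could be read only in part. The precursors MIR398A and MIR398B had 0 reads in all 12 libraries and MIR398C had 77 reads in all, at 0 to 0.597 CPM, and since mRNA was purified, per the labels' protocols, the mature miRNA was not measured. Of the 15 copper response genes, CCS1 among them, 11 were tested, and 7 were positive and 4 negative for Dox in systemic leaves (median 0.21), against 8 and 3 in local leaves (median 0.31). The plastocyanin gene PETE1, a copper protein of the thylakoid, had -0.80 (SE 0.21, adjusted p = 0.451 by edgeR) and the copper transporter COPT6 0.46 (SE 0.22) in systemic leaves. The copper carrier CCH had 0.41 (SE 0.28) and PETE2 0.33 (SE 0.23) in local leaves, and 0 of the 11 passed. These are the largest at 10 CPM or more. All 11 ran from -0.80 to 2.58 in systemic and from -1.55 to 1.61 in local leaves. Dox libraries lay wholly above the control ones for 2 in systemic and 2 in local leaves (7.96% and 4.14% of all genes). They lay wholly below for 2 and 0 (8.41% and 3.4%).

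MSD1, the manganese enzyme of the mitochondrial matrix and thus the member nearest to a mitochondrial stress, barely varied. It stood at 123, 125 and 116 CPM in Dox systemic leaves, against 139, 124 and 122 CPM in control systemic leaves. In Dox local leaves it stood at 158, 118 and 128 CPM, against 118, 113 and 127 CPM in control local leaves. Dox local library 1 was the highest after TMM scaling, and the groups overlapped. The log2 fold change was -0.09 (SE 0.15, 95% interval -0.41 to 0.24, adjusted p = 0.906 by edgeR) in systemic and 0.17 (SE 0.15, 95% interval -0.15 to 0.50, adjusted p = 0.902) in local leaves. On the log2 scale these intervals are the narrowest of the 9 members. As folds, they run from 0.755 to 1.18 in systemic and from 0.903 to 1.41 in local leaves. With scaling by total counts alone, the MSD1 log2 fold change was 0.0285 in systemic and 0.026 in local leaves.

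Within the superoxide dismutase signal per kilobase of these 4 members, FSD1 held 34.5% ± 3.54 in Dox systemic leaves and 26.6% ± 5.95 in control systemic leaves, and 40.8% ± 9.86 in Dox local leaves and 36.7% ± 13.8 in control local leaves (SD, n = 3 each). CSD2 held 21.9% ± 2.00 in Dox systemic leaves and 24.8% ± 5.36 in control systemic leaves, and 13.5% ± 5.88 in Dox local leaves and 15.8% ± 10.4 in control local leaves. CSD1 ranged from 19.0% to 35.5% and MSD1 from 13.9% to 24.9% over the 12 libraries. The FSD1 share was thus split between Dox and control systemic libraries by 30.8% against 30.7%, its lowest Dox and highest control values. Of the other superoxide dismutase genes, the chloroplast nucleoid enzymes FSD2 and FSD3 had -0.55 (SE 0.22) and -0.44 (SE 0.32) in systemic leaves, and the peroxisomal CSD3 0.37 (SE 0.23) with CCS1 at -0.28 (SE 0.33) in local leaves. Counted with CCS1, 1 was positive and 3 negative in systemic leaves and 3 positive and 1 negative in local leaves, of 4 tested and with 0 passing, while MSD2 was at 0 CPM in each group.

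Across the 9 members, 3 values were positive and 6 negative for Dox in systemic leaves (median -0.09, beside -0.00080 over all genes), and 5 positive and 4 negative in local leaves (median 0.17, beside 0.02). For the difference between the positions, 3 were positive and 6 negative (median -0.06, beside -0.01), the extremes being CAT2 at -0.70 (SE 0.77) and CAT3 at 0.33 (SE 0.57). The scaling matters at this size. Scaling by total counts alone moved the median of all genes to 0.11 in systemic leaves and -0.12 in local leaves. For the difference between the positions it moved that median to 0.24.

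The enzymes that feed and back up the members showed the same absence of calls. Of 10 ascorbate and glutathione recycling genes, 3 were positive and 7 negative in systemic leaves (median -0.16; DHAR1 -0.68, SE 0.46; DHAR3 -0.40, SE 0.16), against 9 positive and 1 negative in local leaves (median 0.20; GR1 0.31, SE 0.21; DHAR3 0.27, SE 0.16). DHAR1 and DHAR3 are dehydroascorbate reductases and GR1 a glutathione reductase. Of 8 ascorbate and glutathione synthesis genes, 4 were positive in systemic leaves (median -0.03) and 7 in local leaves (median 0.16), and 0 passed at either position. VTC2, which encodes the controlling enzyme of ascorbate synthesis, had the largest value of that list at both positions.

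VTC2 had 116, 131 and 153 CPM in Dox systemic leaves, against 58.6, 96.9 and 84.6 CPM in control systemic leaves. In Dox local leaves it had 88.3, 160 and 192 CPM, against 75.1, 73.6 and 92.6 CPM in control local leaves. The systemic libraries did not overlap and the local ones did, by the Dox library at 88.3 CPM. Of the 8 synthesis genes, VTC2 alone was so split in systemic leaves, beside 7.96% of all genes with Dox higher and 8.41% with Dox lower. The log2 fold change was 0.73 (SE 0.28, adjusted p = 0.531 by edgeR) in systemic and 0.87 (SE 0.28, adjusted p = 0.902) in local leaves. GSH2 (-0.43, SE 0.24) in systemic and GME (0.26, SE 0.27) in local leaves came next in the list.

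Of the thiol peroxidases, 6 of 9 peroxiredoxins were tested and all 6 were negative in systemic leaves (median -0.52; 2CPB -0.56, SE 0.27; PRXIIB -0.56, SE 0.34), against 1 negative and 5 positive in local leaves (median 0.28; PRXQ 0.35, SE 0.21; 2CPB 0.31, SE 0.27). 2CPB and PRXQ are chloroplast enzymes. Of 8 glutathione peroxidase-like genes, 6 were negative in systemic leaves (median -0.31; GPX5 -0.56, SE 0.24; GPX6 -0.40, SE 0.22) and 5 in local leaves (median -0.05; GPX5 -0.29, SE 0.24; GPX2 0.22, SE 0.27). Over all genes, 49.9% were positive in systemic leaves. Dox systemic libraries lay wholly below the control ones for 4 of the 6 peroxiredoxins and 2 of the 8 glutathione peroxidase-like genes. The same held for 1 of the 10 recycling genes and for 1 of the 4 other superoxide dismutase genes tested, counted with CCS1. Such non-overlap held for 8.41% of all genes, and 0 genes of these lists lay wholly above (7.96%). For the difference between positions, the 6 peroxiredoxins had a median of -0.67 and the 11 photorespiration genes and catalase partners one of -0.51, all 17 negative, beside -0.01 and 48.9% positive over all genes. None of these passed, with a smallest adjusted p of 0.832. Each of the other antioxidant lists also held more negative than positive values, with 1 positive and 9 negative recycling genes and 2 and 6 synthesis genes. The glutathione peroxidase-like genes were also 2 and 6, the other ascorbate peroxidases 2 and 3, and the other superoxide dismutases with CCS1 1 and 3. Genes of a list share the same 12 libraries, so their signs are not separate observations.

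Photorespiration makes the peroxide that CAT2 removes. Of 11 photorespiration genes and catalase partners, 2 were positive and 9 negative in systemic leaves (median -0.30; GLDP1 -0.41, SE 0.34; HPR1 -0.34, SE 0.32), against 10 positive and 1 negative in local leaves (median 0.34; GLDP1 0.50, SE 0.34; HPR1 0.40, SE 0.32). GLDP1 is a subunit of glycine decarboxylase and HPR1 the peroxisomal hydroxypyruvate reductase. CAT2 itself had the values 0.11 and 0.81 given above. The glycolate oxidase genes GOX1 and GOX2 have near-identical copies, as has PGLP1, so reads may be divided between copies and their values are uncertain. Leaf mesophyll markers summed to 20600 to 24500 CPM in Dox systemic leaves, against 26290 to 30850 CPM in control systemic leaves, and to 23510 to 30330 CPM in Dox local leaves, against 20100 to 23980 CPM in control local leaves. The part of these markers in the CAT2 and peroxiredoxin values was not tested.

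**Figure D5:**
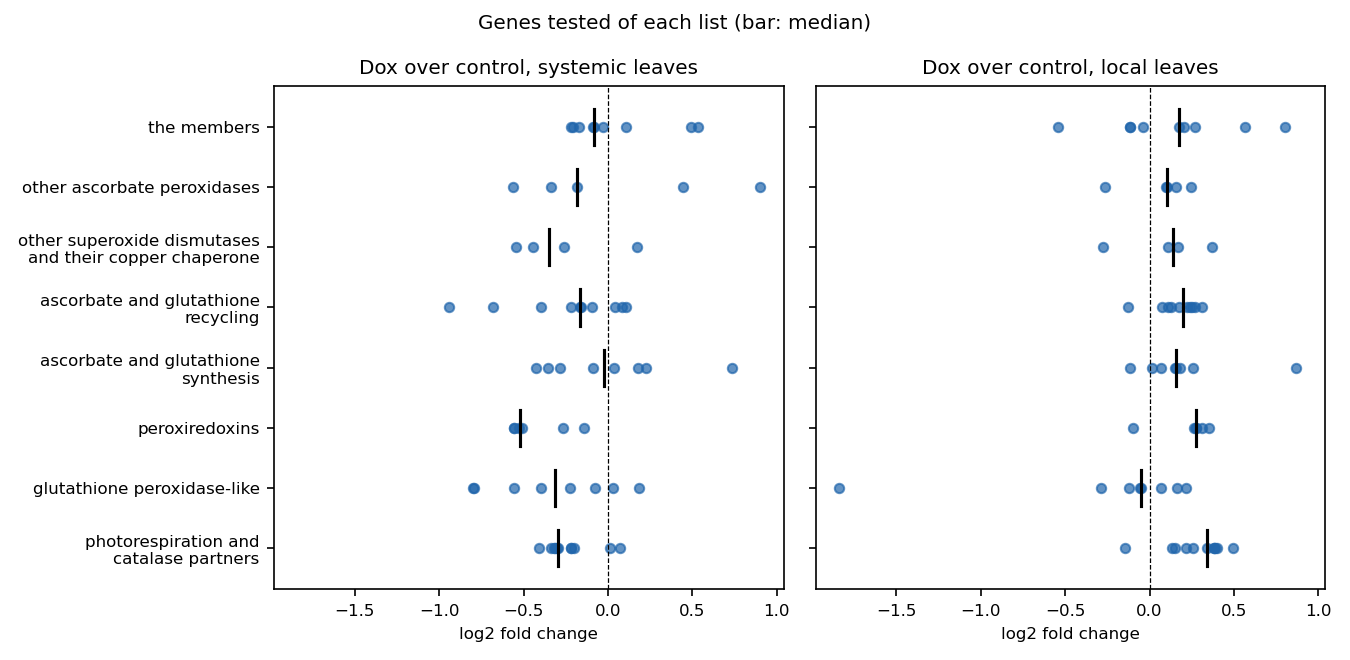
Log2 fold changes for Dox over control in systemic leaves (left) and local leaves (right), 1 point per gene tested in each list, with the list median as a bar. The 6 peroxiredoxins lie below 0 in systemic leaves (median -0.52), and the photorespiration genes have medians of -0.30 and 0.34 in systemic and local leaves.

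Markers of other cell types and states were read in the same groups. Root markers summed to 38.0 to 52.4 CPM in Dox systemic and 29.0 to 99.6 CPM in control systemic leaves, and to 30.8 to 65.9 CPM in Dox local leaves, against 198 to 266 CPM in control local leaves. Nearly all of that sum was PYK10, a beta-glucosidase (log2 -2.91, SE 0.95, adjusted p = 0.902 by edgeR in local leaves), and SCR, while 4 of the 9 root genes had 0 reads. In systemic leaves PYK10 had -1.82 (SE 0.92, adjusted p = 0.6085 by edgeR). Senescence markers summed to 63.8 to 159 CPM in Dox systemic and 74.8 to 304 CPM in control systemic leaves, and to 35.5 to 54.4 CPM in Dox local leaves, against 64.8 to 178 CPM in control local leaves, with SAG12 at 0 reads throughout. That sum was mostly 1 gene, SEN1, with 25394 reads over the 12 libraries, beside 3172 for SAG13 and 315 for ORE1. Flower markers summed to 3.88 to 14.3 CPM in Dox systemic leaves, against 2.24 to 3.09 CPM in control systemic leaves, and to 0.651 to 7.67 CPM in Dox local and 1.42 to 3.11 CPM in control local leaves. Their sum was mostly SEP3, with 1038 reads over the 12 libraries, beside 127 for PI, 32 for AP3 and 17 for AG. Of the 2 flower genes tested, 0 had Dox and control libraries that did not overlap, at either position. Guard cell markers (102 to 226 CPM) and vascular markers (99.1 to 204 CPM) overlapped between Dox and control, and 4 shoot apex markers stayed at or under 0.312 CPM in sum. The part of these markers in the members' values was not tested.

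By likeness of log2 CPM over the 12 libraries, the 2 genes outside the members nearest to each of them were as follows, as a description without a test. CAT1 had AT4G10140 (r = 0.95) and PATL1 (0.93), and CAT3 had AT4G18930 (0.93) and the polyubiquitin gene UBQ14 (0.93). CAT2 had AT3G28310 (0.96) and AT1G52870 (0.95). APX1 had AT2G25310 (0.93) and AT3G02770 (0.92), and tAPX had AT5G05200 (0.97) and the chloroplast thioredoxin gene THM1 (0.92). FSD1 had KAPP (0.88) and AT5G65760 (0.85). CSD1 had AT2G31670 (0.92) and AT1G21520 (0.91), and CSD2 had CCS1 (0.95) and COAD (0.92). MSD1 had SDH6 (0.95), a subunit of mitochondrial succinate dehydrogenase, and HOT5 (0.95), the S-nitrosoglutathione reductase. Of pairs among the members themselves, APX1 and FSD1 had r = 0.79 (rho 0.74), 0.70 within groups, beside the pairs CSD1 with CSD2 and CAT1 with CAT3 described above.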

How the data were processed

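Messenger RNA of Arabidopsis leaves was sequenced in 4 groups. The authors deposited whole-number read counts per gene with no normalization, 3 columns for each labelled sample. Named in the submitters' processing notes, with no role, are featureCounts 1.6.3, HISAT2, DESeq2, FastQC 0.11.9 and Trimmomatic 0.39. The sources used here do not give the genome build, annotation, strand setting or handling of multi-mapped reads, so the reads of near-identical or overlapping genes may be divided or merged. Counts outside numbered loci made up 0.278% to 0.604% of a library. Between columns of a group, the chi-square of a gene's counts was 8.75 to 18.7 times its degrees of freedom (median over genes, by group), more than counting error gives, so each column was used as a library.

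From these counts, edgeR 4.0.16 (R 4.3.3) was run on 4 group means with TMM scaling, filterByExpr at a minimum count of 10, the quasi-likelihood test and Benjamini-Hochberg adjustment over 19403 genes, with 8 residual degrees of freedom. The fit and its test were also run on simulated counts, with an outcome that is not given here. CPM per kb used the union of exons in TAIR10.1, log2 CPM for correlations a prior count of 2, and intervals of ratios of reads cover counting error only. Alternatives were DESeq2 1.42.0, RLE factors, total counts alone, no filter, the library number as a block, each library left out and summed counts. The members and gene lists were chosen with earlier results of these data known. The genes named are the members and, for each member, the 2 genes most correlated with it. Of each list other than the marker lists, they are also the 2 with the largest absolute log2 fold change in each Dox comparison, among genes that reach 10 CPM in 1 of its groups. The marker lists are described by their sums and some single genes, so their largest values are not all shown. MIR398A, MIR398B, MIR398C, CCA1, LHY, TOC1 and single marker genes are named as regulators or checks. MSD2 is named for the miR398 search, and GOX1, GOX2 and PGLP1 for their near-identical copies.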

Additional observations from a re-analysis of the deposited data

How the results depend on the processing

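Of 648 recomputed log2 fold changes of the members, 588 kept their sign and 60 changed it, and under the tested alternatives 0 members passed the test in any comparison. The 648 include fits without a library of a group that the comparison does not use, which could hardly turn a sign. CAT2 in local leaves, for example, was 0.8051 without Dox systemic library 1 and 0.8055 in the reported fit. The count of kept signs is therefore no measure of stability. Calls over all genes depended on the tool. DESeq2 called 134 genes in systemic leaves, 14 in local leaves, 996 between positions and 1 for the difference between positions, where edgeR called 0, 0, 2 and 0. Between positions, scaling by total counts alone called 1 gene, and leaving out libraries gave 0 to 6. In systemic leaves, leaving out libraries gave 0 to 1. Whether the library numbers pair the samples is not stated in the labels. Same-numbered libraries had correlations of their deviations from -0.29 to 0.46 between Dox and control and from -0.0998 to 0.00087 between Dox systemic and Dox local leaves, but 0.29, 0.40 and 0.70 between control systemic and control local leaves. Each of these 6 control libraries was nearest to its own number, against 0 of 6 Dox ones between positions, a hint from the data and not the design. Relative to the reported values, which use no block, the replicate block moved the calls between positions to 5 and the sign of CSD1 in systemic leaves (0.020). For the difference between positions, the block gave 0.047 for APX1 and 0.093 for CSD1. Scaling by total counts alone turned the sign of CAT1 (0.084), CSD1 (0.032) and MSD1 (0.0285) in systemic leaves, of CAT3 (0.022), FSD1 (0.013) and MSD1 (0.15) between positions, and of APX1 (0.23), CSD1 (0.26), CSD2 (0.27) and MSD1 (0.0023) for the difference. Adding up the counts of each group, which allows no test, turned CAT1 (0.080), CSD1 (0.054) and MSD1 (0.0277) in systemic leaves, FSD1 (0.0069) and MSD1 (0.15) between positions, and APX1 (0.24), CSD1 (0.27), CSD2 (0.28) and MSD1 (0.00015) for the difference.

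Leaving out 1 library at a time gave these ranges where the sign turned. In systemic leaves they were -0.17 to 0.10 for CAT1, -0.30 to 0.64 for CAT2, -0.39 to 0.25 for CAT3, -0.37 to 0.50 for CSD1 and -0.45 to 0.45 for CSD2. In local leaves they were -0.34 to 0.098 for CAT1, -0.0050 to 0.46 for FSD1, -0.25 to 0.24 for CSD1 and -0.46 to 0.60 for CSD2. Between positions they were -0.38 to 0.033 for CAT3 and -0.068 to 0.042 for MSD1. For the difference between positions they were -0.13 to 0.31 for CAT1, -0.0083 to 0.82 for CAT3, -0.42 to 0.34 for APX1, -0.33 to 0.57 for CSD1 and -0.77 to 0.59 for CSD2. The cause of these turns was not tested. A group left with fewer libraries was assumed to vary like the others. Depth limits APX2 alone among the members, at 0 to 11 reads a library, while the spread between libraries limits the rest.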
